A study of Mus musculus with 15 samples.

Results

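The insulin-like growth factor (IGF) axis was described through 10 genes in the cells of mouse cerebella and medulloblastomas: the ligands Igf1 and Igf2, the receptors Igf1r, Insr and Igf2r, and the binding proteins Igfbp2, Igfbp3, Igfbp5, Igfbp7 and Igfbpl1. The genes were chosen by name, and all 10 were found among the 27803 genes listed over the 15 Drop-seq tables of UMI counts, 1 table per animal. UMIs (unique molecular identifiers) tag single captured mRNA molecules. The study asked what inhibition of SMO changes in Sonic hedgehog (SHH)-driven medulloblastoma, a tumor of cerebellar granule neuron progenitors (CGNPs), and in the cells around it.

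Vehicle-treated and vismodegib-treated tumors, 5 of each, came from M-Smo mice, which carry Math1-Cre and the allele SmoM2, so that a constitutively active form of SMO is switched on where the Math1 (Atoh1) promoter drives Cre, mainly in CGNPs and their descendants. Tumors were taken at postnatal day (P) 15 after 3 daily intraperitoneal doses from P12 to P14 of either vehicle or vismodegib at 75 mg/kg, a small molecule that blocks SMO. The WT group was 5 untreated C57BL/6 cerebella at P7. Age, genotype, vehicle injection and the microfluidic device (glass for tumors, PDMS for WT) differ between vehicle-treated tumors and WT. Only tumor samples had a spike-in of human cells and a selection of mouse barcodes. These differences change together and cannot be told apart, whereas both tumor groups share the genotype, age, device and spike-in.

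IGF1 and IGF2 are small secreted hormones that bind the tyrosine kinase IGF1R, and with lower affinity the closely related insulin receptor, and signal through IRS adaptors, PI3K and AKT to growth and survival. IGF2R takes up IGF2 and carries it to lysosomes without such signaling. Secreted binding proteins hold IGFs outside the cell and can limit or prolong their action, and IGF signaling is known to act together with SHH in the growth of CGNPs and of SHH medulloblastoma.

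After filtering, 7224 WT, 18293 vehicle and 12429 vismodegib cells were kept, with median depths per animal of 1082.5 to 1625, 1141 to 2597 and 1183.5 to 2368 UMIs. Cells were clustered without the IGF genes and named from marker genes, with the suffix "-like". The paper found Yfp, a tag of the SmoM2 transgene, in part of the astrocytic and oligodendrocytic cells of these tumors. It concluded that Math1-Cre-expressing cells had given rise to them. The astrocyte-like and oligodendrocyte-like classes, counted under stroma below, may thus hold tumor-derived cells. CGNP-like cells, in 4 stages from cycling through progenitor and differentiating to late differentiating, made up 69.9 ± 2.61% of WT, 94.3 ± 1.68% of vehicle and 89.3 ± 3.87% of vismodegib cells (mean ± SD, n = 5 animals). The Cre transcript gave 16 UMIs in the WT group, 84700 in the vehicle group and 27022 in the vismodegib group, so that the genotypes matched their labels. The progenitor class includes a tumor cluster of 3634 cells led by S-phase genes (Ccne2, Tyms, Rrm2), so that replicating cells lie in both the cycling and the progenitor class. It also pools tumor clusters of 5958 cells led by Hes1 and of 2624 cells led by Gm17322. The paper reported less Hes1 in its proliferative CGNP-like nodes after vismodegib. The mix inside the progenitor class may thus differ between the tumor groups. In WT 1313 of 2012 differentiating cells came from a cluster with 2 late differentiating and 1 differentiating marker among its 10 leading genes, and the late differentiating cluster also held the unipolar brush cell marker Eomes, so that the later WT stages are not compared with those of tumors. Pairs of tables shared at most 13 cell barcodes. A level in CPM is a gene's UMI count in the summed cells of a class of an animal, scaled to a total of 1000000 UMIs, and tests compare animals, never cells.

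**Figure D1:**
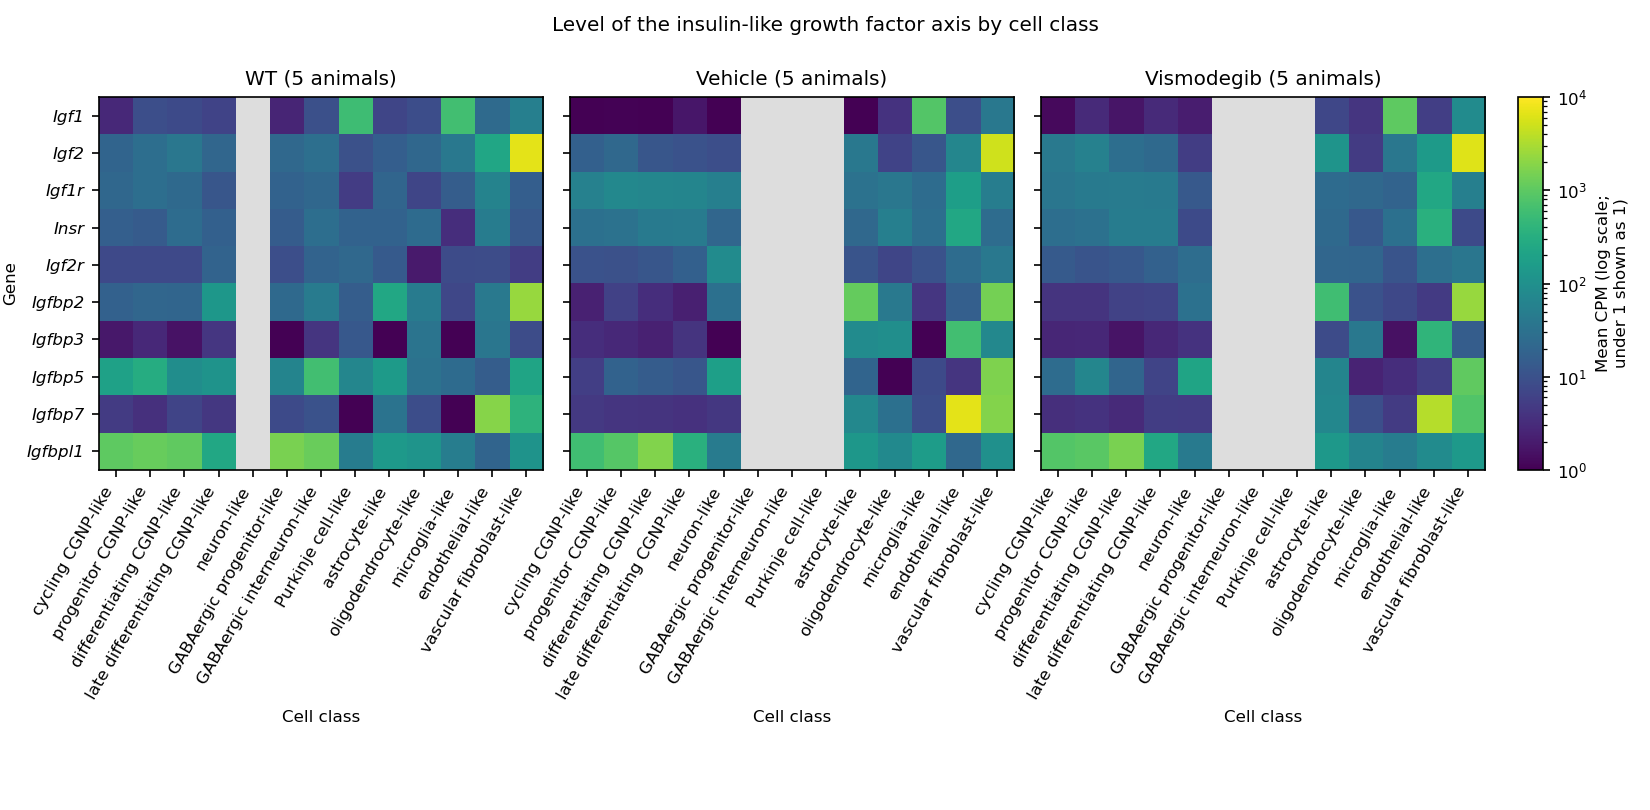
Mean CPM of the 10 genes (rows) in each cell class (columns) of WT, vehicle and vismodegib animals, 5 per group, on a log color scale. Gray marks classes that the group lacked or that fewer than 3 animals held. Igf1 was bright in microglia-like cells, and in Purkinje cell-like cells of WT, Igf2 in vascular fibroblast-like cells, Igfbp7 in endothelial-like and Igfbpl1 in lineage cells and in GABAergic progenitor-like and interneuron-like cells of WT.

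Microglia-like cells held most of the Igf1 mRNA (GRCm38 chr10:87858265-87937042, plus strand) in the tumors, and in WT cerebella most of it lay in these and in Purkinje cell-like cells. The microglia-like class also holds cells led by genes of macrophages, 256 of 527 tumor cells in a cluster led by Ms4a7, Pf4, Lyz2 and Mrc1 and 36 of 96 WT cells in one led by Pf4, Lyve1, Mrc1 and F13a1, which could not be named alone. In WT microglia-like cells the 5 animals had 765, 657, 685, 633 and 331 CPM. Purkinje cell-like cells, found in WT only, had 741, 878, 353, 388 and 451 CPM. The class ranges overlapped, and both lay above the next class, vascular fibroblast-like cells at 52.6 ± 27.7 CPM.

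Of all Igf1 UMIs in kept WT cells, with animals pooled, 56.6% lay in Purkinje cell-like and 24.7% in microglia-like cells (539 UMIs in all). This order was not seen in every animal. Microglia-like cells held more Igf1 UMIs than Purkinje cell-like cells in WT replicates 2 (39 against 29) and 3 (19 against 18). In tumors microglia-like cells held 89% of 517 UMIs with vehicle and 89.6% of 1130 UMIs with vismodegib. With each cell thinned to 500 UMIs, an Igf1 UMI was found in 20.4% of WT, 31.4% of vehicle and 35.6% of vismodegib microglia-like cells. Such shares of cells, here and below, are means over animals. The same measure in CGNP-like cells, taken as the background of free RNA, was 0.395%, 0.0428% and 0.122%. Without thinning the shares were 45.9%, 68.3% and 70.9% of microglia-like cells and 1.1%, 0.181% and 0.545% of CGNP-like cells, at median depths of 1682, 2107 and 2318 against 1326, 1695 and 1691 UMIs.

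Igf1 was found in both kinds of microglia-like cluster. The tumor cluster led by Ms4a7 and Pf4 averaged 1152 ± 443 CPM with vehicle (n = 4) and 1079 ± 186 CPM with vismodegib (n = 5), and the cluster with Ccl4, C1qb and Csf1r among its leading genes 868 ± 206 CPM (n = 4) and 999.8 ± 234 CPM (n = 5). In WT the cluster led by Pf4 and Lyve1 averaged 308 ± 152 CPM (n = 3) and the other 844 ± 77.4 CPM (n = 4). These are descriptions without a test, over animals with at least 5 cells of a cluster.

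Igf1 within microglia-like cells did not pass the test in either comparison. Vehicle tumors had 618, 849.5, 1039, 918 and 884 CPM and vismodegib tumors 985, 1004, 984, 968 and 1184 CPM. The vismodegib values lay at the upper end of the vehicle range and overlapped it (edgeR quasi-likelihood, log2 fold change 0.35 ± 0.19, adjusted p = 0.525). The vehicle values overlapped those of WT (log2 fold change 0.50 ± 0.23, adjusted p = 0.126), although with sums thinned to the smallest total the latter became a call (log2 fold change 1.32, adjusted p = 0.00532).

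Summed over all cells, Igf1 was lower in vehicle tumors than in WT and higher after vismodegib. WT animals had 52.4, 43.8, 30.2, 28.3 and 28 CPM, vehicle tumors 7.57, 13, 4.53, 14.7 and 17.3 CPM and vismodegib tumors 39.9, 21.7, 32.6, 34.6 and 55.5 CPM. Each vismodegib tumor lay above each vehicle tumor (log2 fold change 1.63 ± 0.34, adjusted p = 0.00694), and each vehicle tumor lay below each WT cerebellum (log2 fold change -1.66 ± 0.31, adjusted p = 0.000516). Of all genes tested over all cells, 11.3% and 33.3% did not overlap in these comparisons. The share of microglia-like cells ranged from 0.364 to 1.5% of cells in vehicle and from 1.61 to 3.25% in vismodegib tumors, with no overlap, and its part in the Igf1 difference was not tested.

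Vascular fibroblast-like cells had the highest Igf2 level (chr7:142650766-142666816, minus strand), and with animals pooled held most of its UMIs, in all 3 groups. Their level was 4885, 6863, 5128, 6916 and 10664 CPM in WT. It was 4850.1, 5248, 4213, 6511 and 5268 CPM in vehicle and 7392, 5547, 6424, 7021 and 5899 CPM in vismodegib tumors. The tumor groups overlapped (log2 fold change 0.37 ± 0.23, adjusted p = 0.453), and so did vehicle and WT (log2 fold change -0.25 ± 0.24, adjusted p = 0.436).

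With animals pooled, these cells held 85.9% of Igf2 UMIs in WT, 63.2% in vehicle and 70.1% in vismodegib tumors, although they were 2.51 ± 0.756%, 0.504 ± 0.202% and 1.15 ± 0.236% of cells. Not every tumor followed the pooled shares. CGNP-like cells held more Igf2 UMIs than fibroblast-like cells in vehicle replicate 2 (244 against 124). The same held in vismodegib replicates 2 (193 against 190) and 3 (163 against 156). Among classes held by at least 3 animals of a group, endothelial-like cells came next in level, at 234 ± 217, 69.6 ± 81.1 and 152 ± 107 CPM. Mural-like cells, found in enough number in 1 vehicle and 2 vismodegib tumors only, had Igf2 at 906 CPM and at 1039.7 and 2406 CPM. In the tumors 80 vehicle and 53 vismodegib cells of the class lay in a cluster led by Col3a1, with Col15a1 among its 10 leading genes, and 11 and 74 in one led by Ptgds, with Slc7a11 and Slc6a20a among them, so that different clusters held most of the class in the tumor groups. Igf2 overlaps Gm49394 and Mir483 on its strand and Igf2os on the other, and reads of these could not be told apart.

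Over all cells, Igf2 was 133, 181, 212, 252 and 288 CPM in WT, 31.9, 51.3, 29.1, 64.6 and 69.2 CPM in vehicle and 124, 103, 142, 111 and 141 CPM in vismodegib animals. Every vismodegib tumor lay above every vehicle tumor (log2 fold change 1.29 ± 0.24, adjusted p = 0.00393), and every vehicle tumor below every WT cerebellum (log2 fold change -2.13 ± 0.27, adjusted p = 2.99e-05). Among all genes tested over all cells, 11.3% and 33.3% did not overlap in these comparisons. The share of vascular fibroblast-like cells was 0.306 to 0.79% with vehicle and 0.822 to 1.42% with vismodegib, again with no overlap, and its part in the difference was not tested. Choroid plexus markers summed over all cells to 127 to 336 CPM with vehicle and 192 to 1595 CPM with vismodegib. Their part in the difference was not tested either. With cells that carried markers of a second class left out, the difference missed the threshold (log2 fold change 1.11 with an adjusted p of 0.0552).

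**Figure D2:**
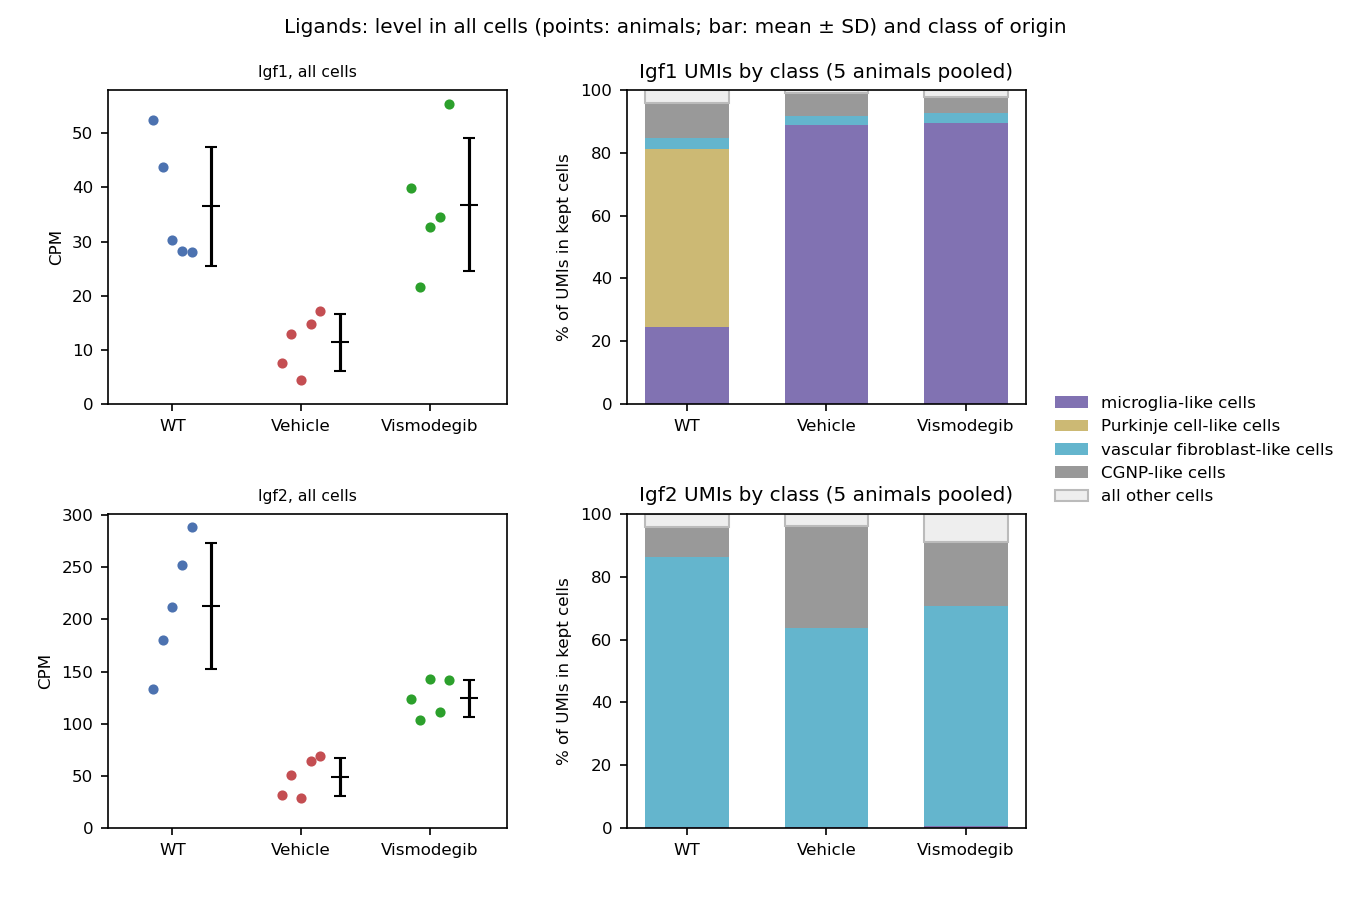
Left, CPM of Igf1 and Igf2 over all kept cells in each animal (points, 5 per group) with the mean ± SD. Right, the percent of each gene's UMIs by cell class, with the 5 animals of a group pooled. Vismodegib points lie above vehicle points for both ligands. Microglia-like cells hold 89% and 89.6% of tumor Igf1, and vascular fibroblast-like cells 63.2% and 70.1% of tumor Igf2.

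In WT CGNP-like cells Igf1 did not exceed its level in barcodes under 500 UMIs. It averaged 6.56 CPM in WT and 0.783 CPM in vehicle cells (log2 fold change -2.89 ± 0.44, adjusted p = 9.82e-05), while WT barcodes under 500 UMIs averaged 43.3 CPM. The paper left such barcodes out as potentially holding mainly ambient mRNA, but they may include shallow cells. In WT replicate 1, 531 of them held 218702 UMIs. They are thus an uncertain measure of free RNA, here and below. The WT value lay below that of these barcodes, and the part of free RNA in the difference was not tested.

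Igf2 in CGNP-like cells was 7.33, 34.4, 5.47, 24.1 and 18.6 CPM with vehicle and 29.4, 55.9, 74.6, 14.2 and 22.4 CPM with vismodegib. These ranges overlapped and the test did not pass (log2 fold change 1.06 ± 0.50, adjusted p = 0.209). Earlier work on these data split the tumors into 2 sets, which the labels do not give. Set 1 holds vehicle replicates 1 and 3 and vismodegib replicates 1, 2 and 3, and set 2 the other 5. What the sets stand for is not known. Fits with a term for them, here and below, are alternatives and not independent support. Within the sets the Igf2 difference took opposite signs, 1.95 and -0.34 on the log2(CPM + 10) scale. Per 100 UMIs of the fibroblast markers, CGNP-like cells had a median over animals of 80.8 Igf2 UMIs with vehicle (range 37.9 to 277) and 229.6 with vismodegib (58.4 to 279.7). The medians were 22 and 23.8 in the fibroblast-like cells and 33.6 and 80 in barcodes under 500 UMIs, and the part of free RNA was not tested. Choroid plexus markers (8 of 8 detected) summed in the same CGNP-like cells to 129.8 to 350.4 CPM with vehicle and 215 to 1289 CPM with vismodegib, and their part was not tested.

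Igf1r (chr7:67952827-68233668, plus strand), the receptor tyrosine kinase that binds both ligands, was higher in tumor CGNP-like cells than in WT ones and lower after vismodegib. WT CGNP-like cells had 20.3, 19.6, 22.8, 31.8 and 21.3 CPM. Vehicle cells had 61.1, 73.4, 63.4, 73.9 and 63 CPM and vismodegib cells 46.1, 42, 41.6, 40.5 and 45.2 CPM. The 3 groups did not overlap, with vismodegib between WT and vehicle. Vehicle was 2.68-fold above WT (log2 fold change 1.42 ± 0.18, adjusted p = 2.21e-05), and vismodegib was 1.55-fold below vehicle (log2 fold change -0.64 ± 0.13, adjusted p = 0.0045). Among all genes tested, 10.4% did not overlap between vismodegib and vehicle and 31.5% between vehicle and WT. Thinned to 500 UMIs, 1.17% of WT, 3.36% of vehicle and 2.2% of vismodegib CGNP-like cells held an Igf1r UMI, against 0.681%, 1.07% and 0.78% of microglia-like cells. Unthinned, the shares were 3.92%, 12.7% and 8.39% against 3.53%, 6.86% and 4.44%, at the median depths given above. The microglia-like means rest on few UMIs, such as 1 in the 6 cells of vehicle replicate 3. On the log2(CPM + 10) scale the log2 ratio of vismodegib to vehicle was -0.44 in set 1 and -0.60 in set 2.

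Free RNA may limit how these Igf1r levels can be read. Barcodes under 500 UMIs had 36.6, 24.7, 34.9, 8.66 and 45.7 CPM in WT, above the CGNP-like cells of the same animal in 4 of 5. In vehicle replicates 1 and 5, the vehicle tumors whose low barcodes held the most UMIs, they had 39.8 and 71.7 CPM, and in vismodegib replicates 1, 2, 4 and 5 they had 80.9, 58.7, 0 and 56.7 CPM. The levels in cells were thus not above those of low barcodes in 4 of 5 WT, 1 of these 2 vehicle and 3 of these 4 vismodegib animals. The part of free RNA in the differences was not tested.

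The log2 fold change of Igf1r after vismodegib was below 0 in each stage. The part of a change of mix inside a stage was not tested. Progenitor CGNP-like cells had 67, 81.1, 69.2, 86 and 63.8 CPM with vehicle and 52.6, 37, 53.1, 38.8 and 34.7 CPM with vismodegib. The groups did not overlap, as for 5.23% of genes tested in this stage, and the fall passed the test (log2 fold change -0.77 ± 0.18, adjusted p = 0.0303), but not without vehicle replicate 2 or 4 or vismodegib replicate 2, 4 or 5. It was also lost with classes from marker UMIs (log2 fold change -0.50, adjusted p = 0.265) and with sums thinned to the smallest total (-0.74, adjusted p = 0.119). Over the 10 fits that left out 1 tumor each the adjusted p ranged from 0.0284 to 0.0841. In cycling cells the groups were also apart, at 51.9, 68, 58.6, 46.9 and 55.9 CPM and 46.2, 39.3, 28, 31.5 and 40.3 CPM, without passing (log2 fold change -0.63 ± 0.18, adjusted p = 0.0873). The test passed there with a term for the 2 sets (adjusted p = 0.0389), with DESeq2 (0.0394) and with classes from marker UMIs (0.0349). In that stage 3.58% of genes tested did not overlap. Differentiating (-0.59 ± 0.19) and late differentiating cells (-0.59 ± 0.26) had log2 fold changes of like size with adjusted p of 0.282 and 0.803. With classes from marker UMIs the test passed in differentiating cells (log2 fold change -0.65, edgeR adjusted p = 0.0222). A difference of the Igf1r change between early and differentiating stages was not detected (log2 difference -0.10, exact permutation p = 0.524, n = 10 tumors, two-sided).

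The promoter of Igf1r, and below that of Igfbp5, is shown because these are the 2 genes of the axis that were called between vismodegib and vehicle in CGNP-like cells. The sequence is the RefSeq promoter of the plus strand (chr7:67952007-67952306, plus strand, GRCm38.p6, 250 bases before to 50 after the RefSeq start), and capitals mark GC boxes, the letters GGGCGG or CCGCCC.

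Igf1r promoter: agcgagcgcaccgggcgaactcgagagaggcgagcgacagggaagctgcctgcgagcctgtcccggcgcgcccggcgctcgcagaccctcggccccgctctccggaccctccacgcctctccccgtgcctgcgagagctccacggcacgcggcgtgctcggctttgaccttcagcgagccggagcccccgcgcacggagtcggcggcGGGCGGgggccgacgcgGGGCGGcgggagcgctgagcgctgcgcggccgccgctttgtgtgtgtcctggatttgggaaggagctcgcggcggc

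It held 76% G and C, against a median of 52.7% over 32851 RefSeq promoters, and 2 GC boxes, a motif in 35.7% of promoters. The TATA box letters TATAAA (13.6% of promoters) and the GLI letters GACCACCCA (0.253%), each searched on both strands, were not in this window. These matches describe the sequence only.

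Endothelial-like cells had the highest mean of Igf1r and of Insr (chr8:3122061-3279617, minus strand), the insulin receptor, in all 3 groups. Their Igf1r level was 62.3 ± 43.7 CPM in WT, 177 ± 173 CPM in vehicle and 254 ± 89.1 CPM in vismodegib animals. Their Insr level was 48.4 ± 25.6, 251 ± 196 and 349.9 ± 147 CPM. Only vismodegib endothelial-like cells lay wholly above the next class for either receptor. With 5 to 21 such cells per WT animal and 55 and 60 in the tumor groups, neither receptor passed the filter on low counts for the edgeR test there. DESeq2, run without the filter, called Insr higher in vehicle than in WT endothelial-like cells (log2 fold change 2.66 ± 0.77, adjusted p = 0.0153).

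Insr in CGNP-like cells was 21.6, 21, 7.59, 17.8 and 24 CPM in WT, 54.2, 18.8, 55.2, 23.1 and 19.3 CPM in vehicle and 43.2, 54.1, 37.1, 23.8 and 26.9 CPM in vismodegib animals. Barcodes under 500 UMIs had 73.2, 24.7, 21, 34.7 and 31 CPM in WT, each above the CGNP-like cells of its animal. They had 86.3 and 26.1 CPM in vehicle replicates 1 and 5. In vismodegib replicates 1, 2, 4 and 5 they had 44.2, 29.4, 53.5 and 75.6 CPM. These tumor values too lay above the CGNP-like cells of the same animal, except in vismodegib replicate 2. The low barcodes of the other tumors held too few UMIs to read, and the part of free RNA was not tested. The CGNP-like levels of all groups overlapped. Vehicle replicates 1 and 3, the vehicle tumors of set 1, lay above the other vehicle tumors, and vismodegib replicates 1, 2 and 3, of the same set, lay above the other vismodegib tumors. Neither comparison passed the test (log2 fold change 0.76 ± 0.34, adjusted p = 0.0831 for vehicle over WT and log2 fold change 0.13 ± 0.33, adjusted p = 0.856 for vismodegib over vehicle). With a term for the 2 sets in the fit, the latter did not pass either. Igf2r (chr17:12682406-12769664, minus strand), which clears IGF2, was low in CGNP-like cells, at 8.35 ± 2.57 CPM in WT, 10.7 ± 3.48 CPM in vehicle and 13.4 ± 3.93 CPM in vismodegib animals. Neither change passed (log2 fold change 0.22 ± 0.29, adjusted p = 0.55 and log2 fold change 0.32 ± 0.26, adjusted p = 0.493). Igf2r overlaps Airn, and Insr overlaps Gm16180, on the opposite strand.

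Igfbp5 (chr1:72857932-72874884, minus strand), which encodes a binding protein that can hold IGFs at the extracellular matrix, was far lower in tumor than in WT CGNP-like cells and higher after vismodegib than with vehicle. WT cells had 255, 199, 141, 137 and 175 CPM. Vehicle cells had 10.5, 8.89, 8.95, 25.4 and 11.1 CPM and vismodegib cells 26.6, 36.5, 38.9, 22.5 and 34.5 CPM. WT lay wholly above both tumor groups, and vehicle replicate 4 alone reached into the vismodegib range. Vehicle and WT were apart for 31.5% of genes tested in CGNP-like cells. Vehicle was 14.8-fold below WT (log2 fold change -3.88 ± 0.29, adjusted p = 2.41e-07), and vismodegib was 2.43-fold above vehicle (log2 fold change 1.28 ± 0.30, adjusted p = 0.0125). With cells that carried markers of a second class left out, the latter missed the threshold (log2 fold change 1.00, adjusted p = 0.0595 by edgeR).

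The minus-strand RefSeq promoter of Igfbp5 (chr1:72874816-72875115, minus strand, GRCm38.p6) is printed 5′ to 3′ and has no capitals, since none of the 3 motifs was found.

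Igfbp5 promoter: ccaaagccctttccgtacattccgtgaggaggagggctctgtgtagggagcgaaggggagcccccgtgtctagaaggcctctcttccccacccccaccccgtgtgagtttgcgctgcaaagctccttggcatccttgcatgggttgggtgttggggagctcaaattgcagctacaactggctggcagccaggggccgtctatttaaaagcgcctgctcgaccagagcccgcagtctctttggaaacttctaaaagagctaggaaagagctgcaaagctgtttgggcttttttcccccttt

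It held 56.3% G and C. Igfbp5 and Igfbp2 lie tail to tail on chromosome 1, 5457 bases apart.

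The rise of Igfbp5 passed the test in cycling and progenitor cells. Cycling cells had 3.9, 3.65, 5.07, 8.53 and 6.74 CPM with vehicle and 8.03, 25, 28, 26.1 and 42.4 CPM with vismodegib. Only vismodegib replicate 1 lay within the vehicle range (log2 fold change 2.21 ± 0.36, adjusted p = 0.00249). Progenitor cells had 12.1, 11.5, 13, 40.4 and 13.1 CPM with vehicle and 55.2, 70, 85.9, 51.5 and 79.5 CPM with vismodegib. The groups did not overlap, as for 5.23% of genes tested in this stage (log2 fold change 1.95 ± 0.35, adjusted p = 0.00596). In differentiating cells the values were 12.5, 7.65, 7.97, 29.1 and 16 CPM and 15.1, 21.6, 20.5, 12.6 and 32.6 CPM, which overlapped (log2 fold change 0.46 ± 0.38, adjusted p = 0.813). Late differentiating cells, where the gene was too low for a test, had 8.81, 32.2, 4, 3.18 and 9.75 CPM with vehicle and 3.35, 0, 4.68, 13.6 and 11.6 CPM with vismodegib, and the groups overlapped.

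The difference between stages was itself tested, on log2(CPM + 10) and chosen after the values were seen: the mean of cycling and progenitor cells minus differentiating cells was 1.01 higher in vismodegib than in vehicle tumors (exact permutation test, two-sided, n = 10 tumors, p = 0.00794, the smallest that 252 arrangements allow, adjusted p = 0.0397 over 5 genes). In progenitor cells vismodegib was 1.83 higher in set 1 and 1.25 higher in set 2 on this scale. The stage mix changed at the same time, with progenitor cells at 50.7 ± 7.48% of vehicle and 24 ± 9.88% of vismodegib cells and late differentiating cells at 5.32 ± 3.03% and 28.7 ± 12.4%. The mix of clusters inside the progenitor class may have changed too. The part of either in the Igfbp5 differences was not tested.

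Free RNA may be part of these values, and its part was not tested. Barcodes under 500 UMIs had an Igfbp5 median over animals of 215 CPM in WT, 0 CPM in vehicle and 36.8 CPM in vismodegib, values near or above those of CGNP-like cells in WT and vismodegib. The vehicle median rests on replicates 2, 3 and 4, whose low barcodes held only 440 to 2271 UMIs in all, while replicates 1 and 5 had 33.2 and 32.6 CPM there, above their CGNP-like cells. Thinned to 500 UMIs, 12.2% of WT, 0.794% of vehicle and 3.14% of vismodegib progenitor cells held an Igfbp5 UMI, against 1.36%, 0.47% and 0.184% of microglia-like cells, so that the shares differed between classes. Unthinned, they were 27.7%, 2.78% and 10.9% against 5.78%, 2.07% and 1.12%, at median depths of 1262, 1577 and 1522 UMIs in progenitor cells.

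**Figure D3:**
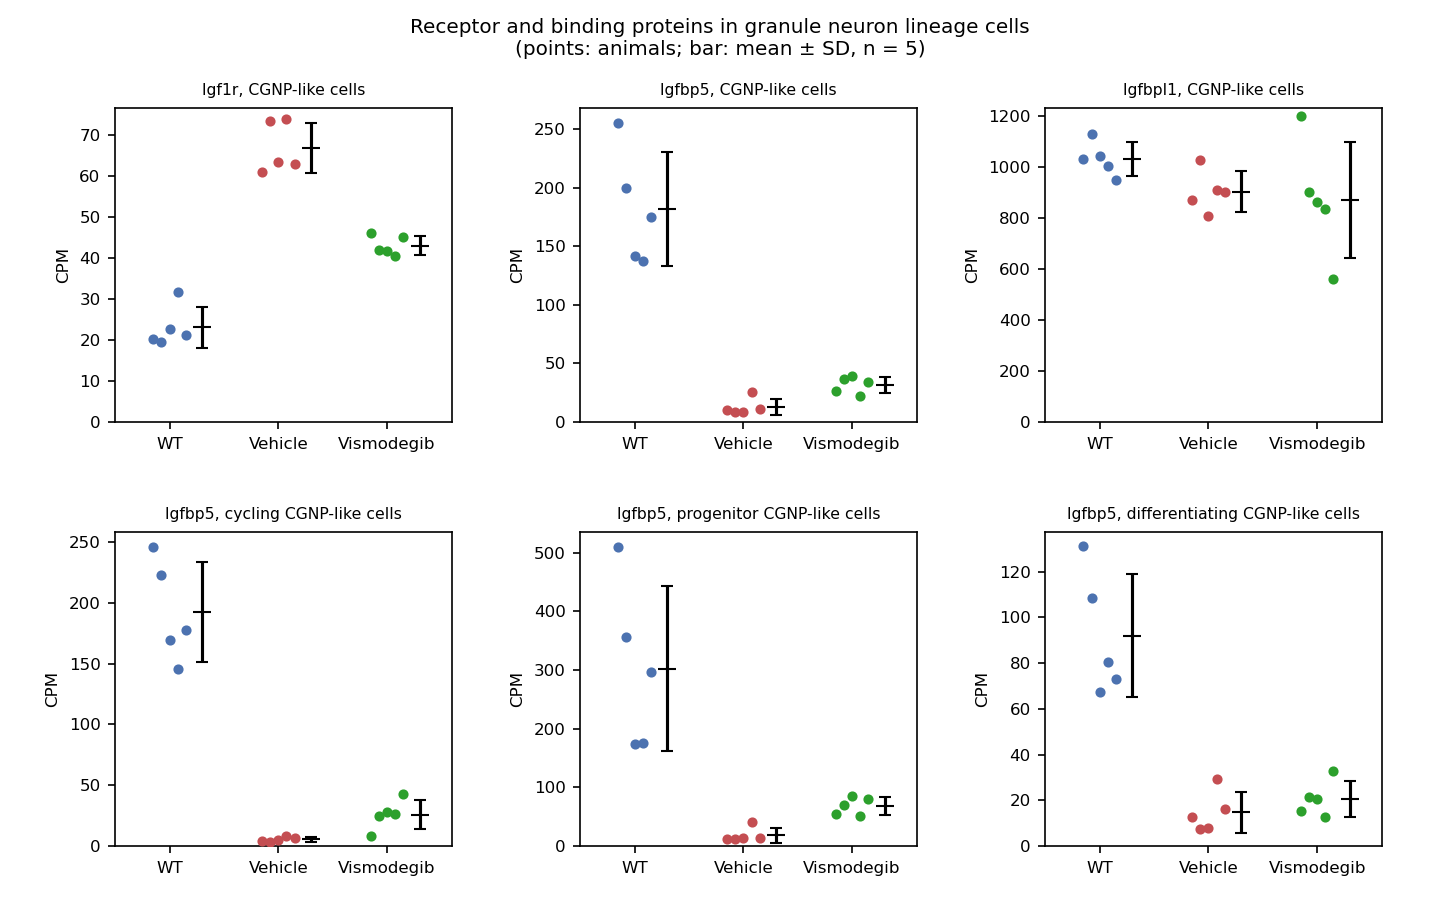
CPM of Igf1r, Igfbp5 and Igfbpl1 in all CGNP-like cells (upper row) and of Igfbp5 in 3 of their stages (lower row), with 1 point per animal and the mean ± SD (n = 5 per group). Igf1r of vismodegib tumors lies between WT and vehicle, and Igfbp5 of progenitor cells lies at 11.5 to 40.4 CPM with vehicle and 51.5 to 85.9 CPM with vismodegib.

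In vascular fibroblast-like cells Igfbp5 rose from WT to vehicle. These cells had 517, 188, 139.5, 113 and 144 CPM in WT. They had 1068, 2624, 843, 1189.5 and 2612 CPM in vehicle and 541, 1431, 947, 1251 and 1032 CPM in vismodegib tumors. Vehicle lay wholly above WT, as 20.0% of genes tested in this class were apart in either direction (log2 fold change 2.97 ± 0.41, adjusted p = 3.57e-05), and the tumor groups overlapped (log2 fold change -0.62 ± 0.33, adjusted p = 0.407). The class differed in make-up, since a mural-like cluster separated in tumors and none did in WT, where the vascular cells were split into 57 endothelial-like and 179 fibroblast-like cells only. The 8 mural markers summed in the class to 3122 to 5477 CPM in WT and 1824 to 5459.6 CPM in vehicle animals, ranges that overlapped. This sum cannot give the share of mural cells. Its markers include Pdgfrb, also a fibroblast marker, and Vtn, a leading gene of fibroblast-like clusters in WT and tumors. The cluster with Col15a1 averaged 2410.3 ± 596 CPM with vehicle and 1703 ± 407 CPM with vismodegib, and the cluster with Slc7a11 702 ± 369 CPM with vismodegib. In astrocyte-like cells Igfbp5 was 153 ± 63.1 CPM in WT and 19.2 ± 21.2 CPM in vehicle animals, a fall that passed the test (log2 fold change -2.50 ± 0.44, adjusted p = 7.46e-05). In WT its highest class was GABAergic interneuron-like cells, at 619 ± 162 CPM, which overlapped progenitor CGNP-like cells at 303 ± 140.2 CPM.

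Igfbp2 (chr1:72824503-72852474, plus strand), a binding protein common in embryonic brain and in glia, was highest in vascular fibroblast-like and astrocyte-like cells. Astrocyte-like cells had 312, 243, 278, 178 and 259.8 CPM in WT. They had 199.7, 1475, 1848, 1138 and 1111 CPM in vehicle and 686, 774, 638, 605 and 277 CPM in vismodegib tumors. Vehicle rose above WT in 4 of 5 animals, vehicle replicate 1 lying within the WT range (log2 fold change 2.18 ± 0.31, adjusted p = 3.79e-06). Vismodegib and vehicle overlapped, without passing the test (log2 fold change -0.94 ± 0.36, adjusted p = 0.214). Without vehicle replicate 1 the test passed (log2 fold change -1.17, adjusted p = 0.0274 by edgeR).

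Over all cells Igfbp2 was 15.1, 23.8, 16.7, 40.4 and 47.5 CPM with vehicle and 60.8, 49.2, 42.8, 79.5 and 54.8 CPM with vismodegib. The groups overlapped and the test did not pass (log2 fold change 0.95 ± 0.31, adjusted p = 0.0612), but it passed with a term for the 2 sets (adjusted p = 0.00277), with DESeq2 (0.0368), without scaling factors (0.0448) and without the filter (0.0462).

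Fibroblast-like cells had Igfbp2 levels of 2402 ± 785 CPM in WT, 1444 ± 505 CPM in vehicle and 2435 ± 445 CPM in vismodegib animals. The vismodegib tumors lay wholly above the vehicle tumors (groups apart for 3.8% of genes tested) but the test did not pass (log2 fold change 0.80 ± 0.27, adjusted p = 0.199). In CGNP-like cells Igfbp2 was 21.9, 31.2, 19, 33.3 and 28.4 CPM in WT and 3.91, 3.39, 4.23, 4.87 and 5.01 CPM with vehicle. These did not overlap, as for 31.5% of genes tested (log2 fold change -2.72 ± 0.24, adjusted p = 1.11e-06). Here too free RNA may limit the reading, as WT barcodes under 500 UMIs had a median of 75 CPM, above the CGNP-like level. Its part was not tested.

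Igfbp3 (chr11:7206086-7213923, minus strand), the main carrier of IGFs in blood, was rare. Endothelial-like cells had 21.3, 162, 0, 0 and 0 CPM in WT, where the value of replicate 2 rests on 5 UMIs. They had 1553, 137, 37.3, 215 and 1153 CPM in vehicle and 63.6, 96, 194, 483 and 1264 CPM in vismodegib tumors. The tumor groups overlapped. Astrocyte-like cells had 66.6, 145, 103, 25.5 and 82.8 CPM with vehicle and 28.2, 0, 0, 1.86 and 10.4 CPM with vismodegib, which overlapped at 1 tumor. WT astrocyte-like cells held 1 UMI in all. Oligodendrocyte-like cells had 28.9, 45.3, 19.1, 32.1 and 44.7 CPM in WT. They had 113, 106, 72, 77.1 and 107 CPM in vehicle and 94.3, 28.6, 0, 56.6 and 21.6 CPM in vismodegib tumors. Vehicle lay wholly above WT (groups apart for 17.9% of genes tested), and vismodegib overlapped both. The filter on low counts kept Igfbp3 out of the edgeR fits of these 3 classes. With DESeq2, which was run without it, the gene was called lower with vismodegib than with vehicle in astrocyte-like cells (log2 fold change -3.36 ± 0.69, adjusted p = 0.00075). It was called higher in vehicle than in WT in astrocyte-like cells (adjusted p = 1.44e-05 by DESeq2) and in oligodendrocyte-like cells (log2 fold change 1.46 ± 0.50, adjusted p = 0.0449).

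Over all cells Igfbp3 was higher in vehicle tumors than in WT (log2 fold change 0.91 ± 0.34, adjusted p = 0.0385), a call lost without any 1 of WT replicates 2, 3, 4 and 5 and vehicle replicates 1 and 5. It was also lost with thinned sums (adjusted p = 0.232), with cells that carried markers of a second class left out (0.2) and with cells of at least 1000 UMIs (0.0819).

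Igfbp7 (chr5:77349240-77408041, minus strand), which encodes a matrix protein of vessels with low affinity for IGFs, was highest in endothelial-like cells among classes held by at least 3 animals of a group. Endothelial-like cells had 2660.1, 1492, 1143, 2170.4 and 1944 CPM in WT. They had 5893, 5543, 4925, 12209 and 5847 CPM in vehicle and 2862, 1968, 3539, 3402 and 6481 CPM in vismodegib tumors. Vehicle lay wholly above WT (groups apart for 16.0% of genes tested; log2 fold change 1.89 ± 0.29, adjusted p = 0.000116), and vismodegib overlapped vehicle (log2 fold change -0.79 ± 0.33, adjusted p = 0.529). Of these classes, vascular fibroblast-like cells followed at 384 ± 166, 1819.5 ± 960.3 and 816 ± 412 CPM, and vehicle over WT passed the test there too (log2 fold change 2.35 ± 0.40, adjusted p = 0.000212). The difference between vismodegib and vehicle in fibroblast-like cells did not pass (log2 fold change -1.03 ± 0.40, adjusted p = 0.287) unless vehicle replicate 1 was left out (log2 fold change -1.25, adjusted p = 0.0317 by edgeR). The few mural-like cells lay above the fibroblast-like mean, with Igfbp7 at 6929.9 CPM with vehicle and at 4412 and 8935 CPM with vismodegib. No mural-like cluster separated in WT. Mural markers summed in endothelial-like cells to 1773 to 4746 CPM in WT and 0 to 4402 CPM in vehicle animals, ranges that overlapped. The part of make-up in the Igfbp7 differences between vehicle and WT was not tested in either class. The 12209 CPM of vehicle replicate 4 rests on 5 endothelial-like cells. Igfbp7 overlaps Polr2b on the opposite strand.

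**Figure D4:**
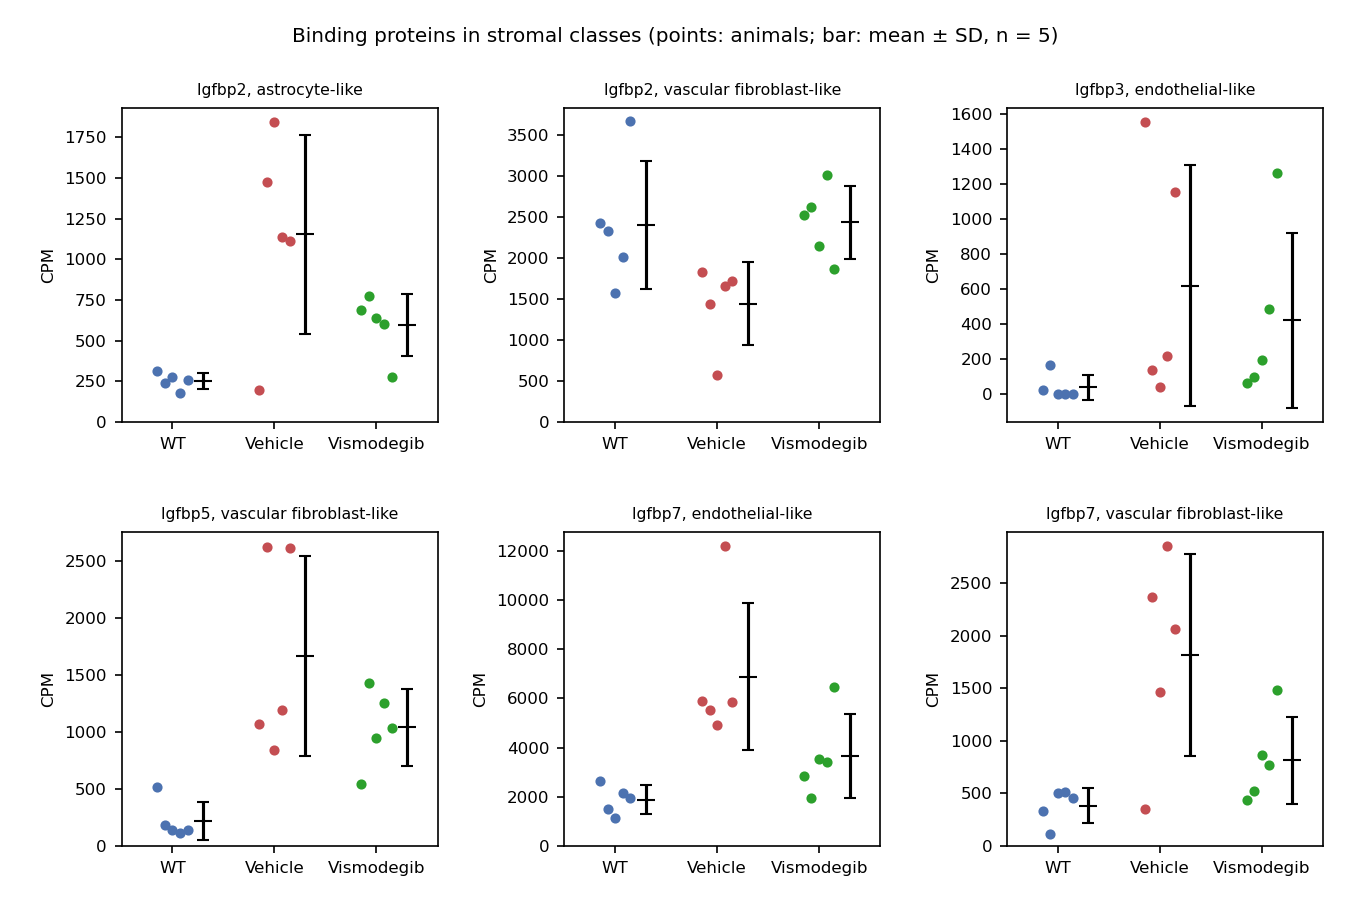
CPM of Igfbp2, Igfbp3, Igfbp5 and Igfbp7 in astrocyte-like, endothelial-like and vascular fibroblast-like cells, with 1 point per animal and the mean ± SD (n = 5 per group). Igfbp5 of fibroblast-like and Igfbp7 of endothelial-like cells lie higher in every vehicle tumor than in WT, and vismodegib points overlap vehicle points in all panels except Igfbp2 of fibroblast-like cells.

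Igfbpl1 (chr4:45809468-45826923, minus strand), an IGFBP-like secreted protein of developing neurons, lay mostly in CGNP-like cells, which held 77.9% of its UMIs in WT, 99.1% in vehicle and 98.4% in vismodegib animals, beside 69.9%, 94.3% and 89.3% of cells. CGNP-like cells had 1032, 1133, 1044, 1007 and 950.0 CPM in WT. They had 873, 1030.0, 809, 910.3 and 902 CPM in vehicle and 1201, 905, 863, 836 and 559.7 CPM in vismodegib tumors. The groups overlapped and neither comparison passed (log2 fold change -0.28 ± 0.12, adjusted p = 0.0755 for vehicle over WT and log2 fold change -0.05 ± 0.17, adjusted p = 0.887 for vismodegib over vehicle). Vehicle over WT passed with thinned sums (adjusted p = 0.0382), with classes from marker UMIs (0.0457) and with cells of at least 1000 UMIs (0.0395).

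By stage, Igfbpl1 in vehicle tumors was 594 ± 34.1 CPM in cycling, 881 ± 42.2 CPM in progenitor, 1716 ± 255 CPM in differentiating and 344 ± 55.4 CPM in late differentiating cells, with no overlap between the first 3. In cycling cells vismodegib tumors had 857 ± 144 CPM, above every vehicle tumor (groups apart for 3.58% of genes tested), without passing the test (log2 fold change 0.52 ± 0.14, adjusted p = 0.0696). It passed with a term for the 2 sets (adjusted p = 0.0278) and with DESeq2 (0.0155). The other stages of vismodegib tumors had 943 ± 141 CPM in progenitor, 1589 ± 225 CPM in differentiating and 249 ± 75.6 CPM in late differentiating cells, each overlapping vehicle. The lower mean of late differentiating cells did not pass (log2 fold change -0.49 ± 0.20, adjusted p = 0.779), but became a call with classes from marker UMIs (log2 fold change -1.71, adjusted p = 0.00767 by edgeR). The change in early stages minus that in differentiating cells was 0.40 on the log2 scale (exact permutation test, two-sided, n = 10 tumors, p = 0.0159, adjusted p = 0.0397, chosen after the values were seen). In WT its highest level was in GABAergic progenitor-like cells, at 1558 ± 212 CPM, which overlapped GABAergic interneuron-like and progenitor CGNP-like cells.

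Counted over the axis, 2 of 9 genes tested in CGNP-like cells were called between vismodegib and vehicle, 1 higher (Igfbp5) and 1 lower (Igf1r), beside 13.0% of all genes tested, 8.36% higher and 4.64% lower. By stage, 1 of 6 was called in cycling cells (2.31% of all genes) and 2 of 6 in progenitor cells (3.0%). None of 5 was called in differentiating cells (0.303%) and none of 3 in late differentiating cells (0.0502%). In stroma no test of an axis gene passed by edgeR, beside 1.49% of genes in astrocyte-like, 0.25% in microglia-like, 0.0% in endothelial-like and 1.43% in vascular fibroblast-like cells. At an unadjusted p under 0.05 there were 1 of 2, 0 of 1, 1 of 1 and 2 of 4 axis genes tested in these classes. Of all genes tested there were 272 of 2014, 178 of 1602, 35 of 445 and 51 of 421. Over all cells 4 of 10 were called, Igf1, Igf2 and Igfbp5 higher and Igf1r lower, beside 13.9% of all genes, 9.23% higher and 4.69% lower. The Igfbp5 call was lost in 7 of the 10 fits that left out 1 tumor each (adjusted p up to 0.111) and with cells of a second class left out (0.0886).

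Between vehicle and WT, 4 of 10 genes were called in CGNP-like cells, Igf1r higher and Igf1, Igfbp2 and Igfbp5 lower. The WT medians of all 4 in CGNP-like cells lay below those of barcodes under 500 UMIs, and the part of free RNA in these calls was not tested. The count is near the 44.6% of all genes called, 21.3% higher and 23.3% lower. In stroma 2 of 3 were called in astrocyte-like (23.7% of all genes), 1 of 1 in endothelial-like (25.4%), 2 of 4 in fibroblast-like (31.9%) and 0 of 1 in microglia-like cells (21.0%). Over all cells 6 of 10 were called, Igf1r and Igfbp3 higher and Igf1, Igf2, Igfbp2 and Igfbp5 lower, beside 48.0% of all genes, 23.0% higher and 25.0% lower.

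Between vismodegib and vehicle, DESeq2 gave 5 calls of an axis gene in a stage (31 tests), where edgeR gave 3 (20 tests). Such counts can hold a gene more than once. Of all genes DESeq2 called 2.98% in cycling, 4.29% in progenitor, 0.615% in differentiating and 0.0951% in late differentiating cells. In stroma it gave 1 call in 25 tests, beside 0.0% of genes in endothelial-like, 1.61% in fibroblast-like, 0.948% in astrocyte-like, 0.174% in microglia-like and 3.18% in oligodendrocyte-like cells. Between vehicle and WT it gave 10 calls in 32 stromal tests, where edgeR gave 5 in 9. Of all genes DESeq2 called 5.15%, 5.85%, 8.86%, 3.51% and 7.6% in these classes in the same order.

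**Figure D5:**
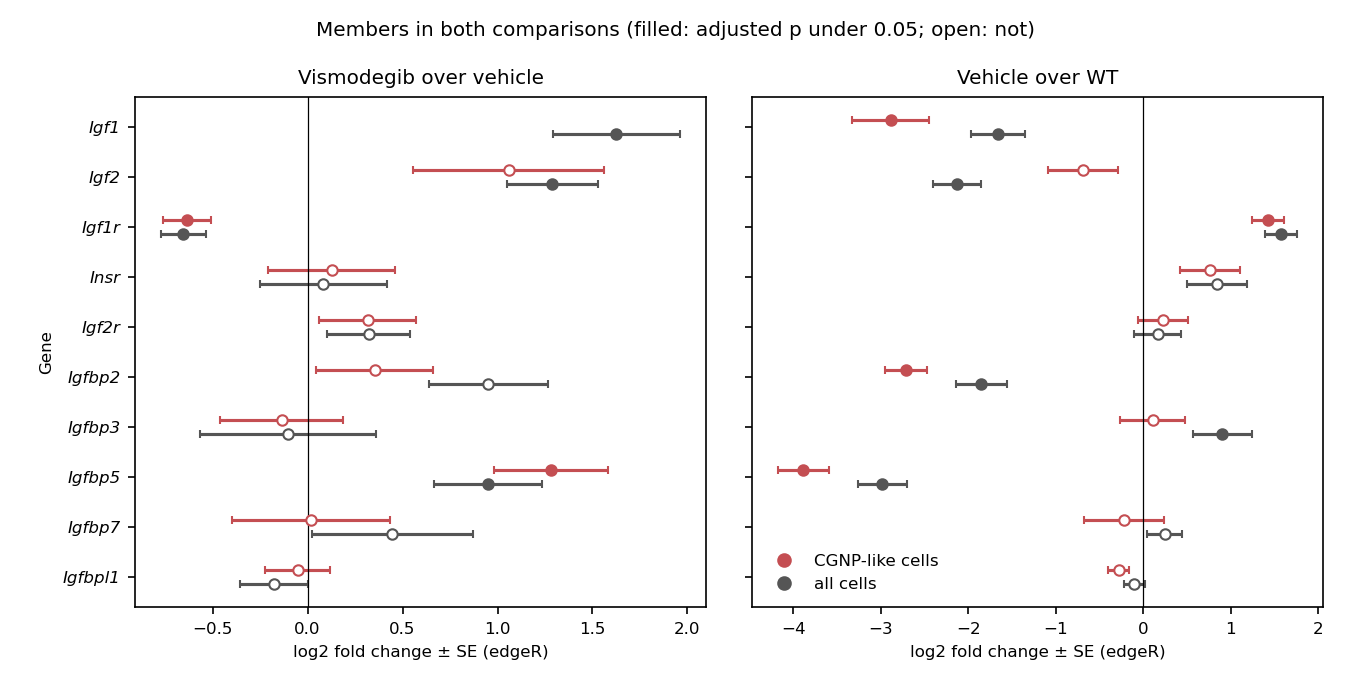
Log2 fold change ± SE from edgeR for the 10 genes in CGNP-like cells (red) and all cells (gray), for vismodegib over vehicle (left) and vehicle over WT (right), 5 animals per group. Filled points passed an adjusted p of 0.05. Igf1r lies below 0 on the left and above 0 on the right, and Igfbp5 the other way round. Both comparisons share the vehicle tumors.

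Of 52 other pathway genes, 42 were tested in CGNP-like cells between vismodegib and vehicle, where 5 were higher and 1 lower, beside 8.36% and 4.64% of all genes (median log2 fold change 0.13, against 0.00 over all genes). The higher calls included 3 regulatory subunits of PI3K: Pik3r3 (log2 fold change 0.95 ± 0.13, adjusted p = 0.00047), Pik3r1 (log2 fold change 0.66 ± 0.19, adjusted p = 0.0362) and Pik3r2 (log2 fold change 0.66 ± 0.14, adjusted p = 0.00776). Pik3r3 averaged 159 ± 27.7 CPM in WT, 89.8 ± 8.3 CPM in vehicle and 173 ± 21.1 CPM in vismodegib animals. The adaptor Gab1 (log2 fold change 0.80 ± 0.22, adjusted p = 0.0276) and Pik3cd, a catalytic subunit at a mean log2 CPM under 3, were also called higher, and Eif4ebp1, a translation repressor that mTOR inactivates, fell (log2 fold change -0.94 ± 0.25, adjusted p = 0.0264). Among 24 PI3K, AKT and mTOR genes tested, 4 rose and 1 fell, of 9 adaptors 1 rose, and none of 4 binding protein proteases and inhibitors, 4 imprinted partners and Igf2 mRNA-binding proteins or the 1 other binding protein (Igfbp4) was called.

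Between vehicle and WT, 15 of 43 tested pathway genes were higher and 5 lower, beside 21.3% and 23.3% of all genes. The largest rises, among genes at a mean log2 CPM of at least 3, were of Eif4ebp1 (log2 fold change 2.38 ± 0.30, adjusted p = 2.25e-05), the FOXO factors Foxo6 (1.90 ± 0.39 on the log2 scale) and Foxo1 (1.86 ± 0.38), the receptor adaptor Irs1 (log2 fold change 1.66 ± 0.27, adjusted p = 0.00018) and Airn, the antisense transcript of Igf2r (1.49 ± 0.33). Igfbp4, another IGF binding protein, fell (log2 fold change -2.09 ± 0.30, adjusted p = 6.08e-05), as did Pik3r3 (-0.91 ± 0.14) and the Igf2 mRNA-binding protein gene Igf2bp3 (-0.57 ± 0.20).

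Across 32 means of a class in a group, the genes whose log2(CPM + 10) was most alike followed the source classes. Igf1 was closest to Rgs10 (Pearson r = 0.92), Igf2 to Col3a1 (0.95), Igfbp7 to Lama4 (0.97), Igfbpl1 to Ddah2 (0.93) and Igfbp2 to Il33 (0.91). The closest were Plcg1 for Igf1r (0.87), Tfrc for Insr (0.87), Kif26a for Igfbp3 (0.88) and St3gal2 for Igf2r (0.79). Igfbp5, with high levels in unlike classes, had the weakest best match, Ror1 (0.73). Classes of one animal share a library, and these values are descriptions without a test.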

How the data were processed

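Single cells of 15 animals had been profiled by Drop-seq. The study's methods give Drop-seq Tools 1.13 and STAR 2.5.4a, and the submitters' processing notes give bcl2fastq 2.18, STAR 5.4b, Seurat 2.3.0 and the builds mm10 and hg19. The annotation version and the strand setting are not given in the sources used here, so genes that overlap others are uncertain. The authors deposited raw UMI counts per gene and barcode, 1 table per animal, with totals of 2310474 to 17708677 UMIs. Human HEK293 cells had been spiked into the tumor samples, and the authors had retained barcodes of mostly mouse transcripts.

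Barcodes with at least 500 UMIs and 500 genes and within 5 SD were kept, 37946 of 51841. Tumor and WT cells were clustered separately (30 neighbors, resolution 0.8), with the 10 axis genes and 52 pathway genes held out. Marker lists had been fixed, but the naming rule was settled after the clusters were seen. No doublet caller was run. Instead, leaving out cells with at least 3 markers of a second class was an alternative. Counts were summed per animal and class (at least 5 cells), and edgeR 4.0.16 (R 4.3.3, TMM, filterByExpr, quasi-likelihood test) was fitted over all genes, with Benjamini-Hochberg adjustment over all genes tested and calls at an adjusted p under 0.05. The SE is the log2 fold change divided by the square root of F. Shares of cells with a UMI, as means over animals, were computed after thinning each cell to 500 UMIs, and cover counting of captured molecules only.

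All 10 axis genes are described whether or not they passed a test. Of the pathway genes, those named are up to 5 higher and 5 lower calls per comparison by size of log2 fold change, if their average log2 CPM reached 3. For likeness they are the closest genes among those with at least 50 CPM in some class. The genes, lists and classes were chosen with earlier results of these data known. Alternatives were DESeq2 1.42.0, no scaling factors, no filter, a replicate block, a term for 2 sets of tumors, each animal left out, thinned sums, classes from marker UMIs, cells with markers of a second class left out, at least 1000 UMIs, and a limit of 4 SD. The test was checked on simulated data. Python 3.11.15, scipy 1.17.1 and igraph 0.11.9 were used. Promoters came from RefSeq (GRCm38.p6) and matched 8 of the 10 genes by symbol.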

Additional observations from a re-analysis of the deposited data

Results flagged for a closer look

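Of 89 groups of 5 animals examined for a single value far from the rest, 14 held one, where chance gives about 1 in 20. Igf1 in microglia-like cells was highest in vismodegib replicate 5 at 1184 CPM, above the 968 to 1004 CPM of the other 4. Igf1r in CGNP-like cells was highest in WT replicate 4 at 31.8 CPM, against 19.6 to 22.8 CPM, which is still below every tumor. Igf1r over all cells was lowest in vismodegib replicate 4 at 40.1 CPM. Igf2r in CGNP-like cells was highest in WT replicate 1 at 12.8 CPM (41 UMIs) and in vehicle replicate 3 at 16.9 CPM (68 UMIs), and over all cells in vehicle replicate 3 at 16.7 CPM.

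Among the binding proteins, Igfbp2 over all cells was highest in WT replicate 5 at 137 CPM. Igfbp3 in endothelial-like cells was 162 CPM in WT replicate 2 on 5 UMIs. In CGNP-like cells Igfbp3 was lowest in WT replicate 2 at 0.725 CPM, a single UMI, and in vehicle replicate 3 at 1.99 CPM. Over all cells Igfbp3 was highest in vismodegib replicate 5 at 20.6 CPM, against 3.74 to 5.85 CPM. Igfbp5 stood out in fibroblast-like cells of WT replicate 1 at 517 CPM and in CGNP-like cells of vehicle replicate 4 at 25.4 CPM. Igfbp7 in endothelial-like cells was 12209 CPM in vehicle replicate 4, on 5 cells, against 4925 to 5893 CPM in the other vehicle tumors.

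The vismodegib effect differed between early and differentiating CGNP-like cells for Igfbp5, by 1.01 on the log2 scale, and for Igfbpl1, by 0.40, by the exact permutation test given above. This contrast was chosen after the values were seen and is not independent evidence, and for Igfbpl1 the vismodegib and vehicle tumors overlapped in it.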

How the results depend on the processing

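The 24 called fold changes kept their direction in all 458 alternative fits that could be made, and 432 of these passed the threshold again. The other 26 concerned Igf1r of progenitor cells, Igfbp5 of CGNP-like cells, and Igf2, Igfbp3 and Igfbp5 of all cells.

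For vismodegib against vehicle, the number of axis genes called in CGNP-like cells was 1 in place of 2 with cells carrying markers of a second class left out (12.5% of all gene tests called). Over the stages and in stroma a gene can be called in more than 1 class, and calls are counted over tests of a gene in a class. The stages gave 3 calls in 20 tests (1.62%). The calls became 5 with DESeq2 (31 tests, 2.3%), with a term for the 2 sets of tumors (20 tests, 3.44%) and with classes from marker UMIs (19 tests, 4.18%). With thinned sums 1 was left (13 tests, 1.27%). Stroma gave 0 calls in 8 tests (2.54%). There was 1 with DESeq2 (25 tests, 0.888%), 2 without a filter (50 tests, 0.583%) and 1 with classes from marker UMIs (8 tests, 6.66%). Over all cells the number of axis genes called was 4, and 2 with second-class cells left out (12.2%). For vehicle against WT stroma gave 5 calls in 9 tests (25.4%). The calls became 10 with DESeq2 (32 tests, 6.76%), 11 without a filter (49 tests, 3.99%) and 3 with second-class cells left out (6 tests, 24.7%). The other 55 of 67 counts stayed within 1.5 times the value given, and the causes were not tested. Igf1r of progenitor cells missed the threshold with classes from marker UMIs (log2 fold change -0.50, edgeR adjusted p = 0.265). Igfbpl1 in astrocyte-like cells between vehicle and WT was uncalled at -0.04 and became 1.52 with classes from marker UMIs.

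Leaving out 1 animal at a time gave 2 to 2 called genes in CGNP-like cells and 3 to 5 over all cells for vismodegib against vehicle. For vehicle against WT it gave 4 to 6 in CGNP-like cells and 5 to 7 over all cells. Calls of a gene in a class numbered 2 to 3 over stages and 0 to 2 in stroma for vismodegib against vehicle, and 5 to 5 in stroma for vehicle against WT. Shares of all genes called in these fits are not given, so that the counts stand without a background. The 2 stromal calls came without vehicle replicate 1 and were Igfbp2 of astrocyte-like and Igfbp7 of fibroblast-like cells. Igfbp5 over all cells missed the threshold without any 1 of vehicle replicates 1, 2 and 3 and vismodegib replicates 2, 3, 4 and 5 (edgeR adjusted p up to 0.111). Leaving out vehicle replicate 4 or 5 added Igfbp2 over all cells, and leaving out vismodegib replicate 5 added Igfbpl1 of cycling cells. Against WT, leaving out vehicle replicate 2 added Igf2 of CGNP-like cells, and Insr was added in CGNP-like cells without vehicle replicate 2 or 5 and over all cells without vehicle replicate 2, 4 or 5. Insr was also called in both without a filter on low counts.

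With the replicate number as a block the counts for vismodegib against vehicle were 2 in CGNP-like cells, 3 over stages, 0 in stroma and 5 over all cells. For vehicle against WT they were 4, 5 and 6 in CGNP-like cells, stroma and all cells. These counts too stand without the share of all genes. Igfbp2 over all cells, called under 4 other alternatives as well, was the added call (log2 fold change 1.05, edgeR adjusted p = 0.0147). Deviations of same-numbered vehicle and vismodegib tumors correlated from -0.29 to 0.36, and 2 of 5 correlated best with their own number. This check cannot settle whether same-numbered tumors were paired. The paper's methods state that littermates were injected, and the labels give no litter. Depth limits the rarer genes most: Igf2r, Igfbp3 and the stromal receptors rested on few UMIs per animal.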
